A study of Mus musculus with 15 samples.

Results

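The gene segments of the T cell receptor loci of the mouse were mapped against 12 peak lists of EL4 cells. Members were all RefSeq genes of GRCm38 on chromosomes 14, 6 and 13 whose symbols begin with the names of the variable (V), diversity (D), joining (J) or constant (C) segments of the alpha, beta, gamma and delta chains, namely Trav, Traj, Trac, Trdv, Trdc, Trbv, Trbd, Trbj, Trbc, Trgv, Trgj and Trgc. This rule gave 266 of the 49554 genes on chromosomes 1 to 19 and X, with 178 V, 2 D, 78 J and 8 C segments. The Tra/Trd locus (chr14:52427967-54224198, 1796 kb) held 198 of them, the Trb locus (chr6:40891296-41558371, 667.1 kb) 53 and the Trg locus (chr13:19178042-19352343, 174.3 kb) 15. The Trdd and Trdj segments were outside the rule.

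T cell receptor genes are assembled in each developing T cell by V(D)J recombination, in which the RAG1 and RAG2 proteins cut the DNA beside a V, a D or a J segment and the chosen ends are joined, with the DNA between them either removed or inverted. V and J segments, and D segments in the beta and delta chains, together encode the variable domain that contacts antigen, while a C segment encodes the constant and membrane-anchoring part of the chain. The Trd locus lies inside the Tra locus, between the V and J segments of the alpha chain, so that joining a Trav to a Traj segment takes Trdc off that chromosome.

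EL4 is an established mouse T cell lymphoma line of the strain C57BL/6N, and all libraries came from this untreated line, with no other genotype, age or treatment to compare. The lists hold intervals of ChIP-seq for H3K4me3, H3K9ac and H3K27ac, marks found at active promoters and enhancers, for H3K36me2, a mark of gene bodies and the space between genes, and for H3K27me3, a mark laid down by the Polycomb complex on silent chromatin, together with ATAC-seq, which reports DNA open to a transposase. Each of the 6 sets had 2 replicates, which the study's methods describe as technical. Of 15 samples, the input and both RNA-seq libraries (3 samples) were not analysed here.

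The lists hold 17519 to 46015 intervals each and give positions only. Read depth, signal and mapped background at any segment are therefore unknown, and with 2 replicates a set no exact test over samples can pass 0.05, so all values below are descriptions. A segment was counted as touched where an interval shared at least 1 bp with it in each replicate. Genes that define T cells were marked in these lists: H3K4me3, H3K9ac and H3K27ac each touched 8 of 8 T lineage markers in both replicates. Each also touched 1 of 5 B lineage, 2 of 5 myeloid and 0 of 3 liver markers, where 27.7%, 26.5% and 27.5% of all genes were touched. The B lineage gene Pax5 and the myeloid genes Itgam and Spi1 were touched by all 6 of these lists. The B lineage and myeloid counts thus show no absence of these marks.

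Most segments carried no interval. Of the 266 segments, 180 were touched by none of the 12 lists, 44 were touched by at least 1 list of H3K4me3, H3K9ac, H3K27ac or ATAC-seq, and 16 by at least 1 list of H3K27me3. No segment fell in both of the last groups. The share of all genes in none, or in both, of these groups was not counted, so no background stands beside these counts.

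H3K4me3 touched 36 segments in replicate 1 and 34 in replicate 2, with 34 (12.8%) touched in both, where 27.7% of all genes were touched in both. H3K9ac gave the same counts, 36, 34 and 34 (12.8%), beside 26.5% of all genes. H3K27ac touched 40 and 39 segments, 38 (14.3%) of them in both replicates, beside 27.5%. Each share of the segments was thus below that of all genes, but the segments are short, with a median length of 499 bp for V and 60 bp for J segments. When only the middle base of each gene was asked for, which no longer favours long genes, H3K4me3 covered 30 of 266 segments (11.3%) and 3.03% of all genes, H3K9ac 26 (9.77%) and 2.51%, and H3K27ac 36 (13.5%) and 2.88%. By that measure the segments stood above all genes for each of the 3 marks, although the middle of a short gene also lies near its ends. Neighbouring segments under a single interval, such as Trbj2-1 to Trbj2-7 or Traj45 to Traj41, were each counted. These counts therefore rest on fewer intervals than segments.

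ATAC-seq touched 3 segments in replicate 1 and 4 in replicate 2, with 2 (0.752%) in both, against 23.7% of all genes, and it covered the middle of 0 segments against 0.795%. H3K36me2 touched 17 and 24 segments, 11 (4.14%) of them in both, against 26.5%, and the middle of 11 (4.14%) against 15.2%. H3K27me3 touched 14 and 10 segments, 8 (3.01%) of them in both, against 14%, and the middle of 7 (2.63%) against 6.37%. For these 3 sets the segments stood below all genes by either measure, and replicates agreed least for H3K36me2, where 30 segments were touched in either replicate.

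The classes differed in which mark they carried. H3K4me3 touched 15 of 178 V segments (8.43%), 16 of 78 J segments (20.5%) and 3 of 8 C segments (37.5%) in both replicates, although a C segment is far longer, at a median of 2514.5 bp, than a V or J segment. H3K27ac touched 16 V (8.99%), 18 J (23.1%) and 4 C segments (50.0%). H3K36me2 touched 0 V, 9 J (11.5%) and 2 C segments, while H3K27me3 touched 8 V segments (4.49%) and 0 J or C segments. The 2 D segments, Trbd1 and Trbd2, which sit between V and J in the beta chain, were touched by 0 of the 12 lists. Neighbouring J segments often lay under 1 interval, so they are not independent observations of a mark.

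**Figure D1:**
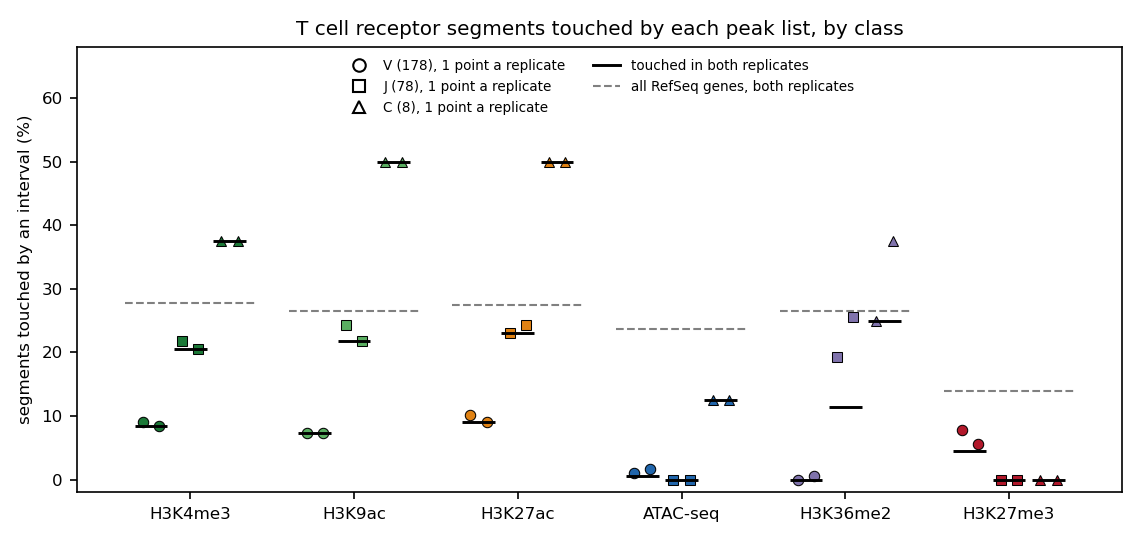
Share of V, J and C segments touched by an interval (vertical axis, %) for each set; points are the 2 replicates, black bars the share touched in both, and dashed lines the share of all RefSeq genes touched in both. V segments stand lowest for H3K4me3, H3K9ac, H3K27ac and H3K36me2, and are the class touched by H3K27me3.

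Measured in base pairs, the 3 loci were split into runs of V segments (2058 kb) and runs of D, J and C segments (158.1 kb). H3K4me3 covered 1.08% of the V runs in replicate 1 and 1.06% in replicate 2, but 21.0% and 20.5% of the D-J-C runs, where the autosomes had 1.11% and 1.09%. H3K27ac covered 1.14% and 1.16% of the V runs, and 24.3% and 25.5% of the D-J-C runs, where the autosomes had 1.24% and 1.27%. Pooled over the loci, V runs sat near the level of the autosomes for both marks and D-J-C runs above it in both replicates. The loci weigh unequally in these pools, with 1648 of the 2058 kb of V runs coming from Tra/Trd. Of the 33.3 kb of D-J-C runs under H3K4me3 in replicate 1, 24.3 kb came from Trg. At Tra/Trd H3K4me3 covered 0.869% and 0.85% of the V runs and 7.69% and 7.8% of the D-J-C runs. At Trb it covered 0.308% and 0.219% of the V runs and 22.6% and 22.4% of the D-J-C runs. Trg did not share this difference in pooled base pairs. Its V runs had 35.0% and 36.3% under H3K4me3 and 29.7% and 32.2% under H3K27ac. Its D-J-C runs had 34.4% and 33.0%, and 34.3% and 34.8%. Single runs varied under H3K4me3, with 18.8% and 17.7% from Trgj3 to Trgj2 but 90.8% and 89.7% from Trgj4 to Trgc4. V runs ranged from 0.0% at Trgv3 to 99.9% from Trgv2 to Trgv1. By segment, H3K4me3 touched 3 of 7 V, 3 of 4 J and 3 of 4 C segments of Trg in both replicates.

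H3K36me2 covered 0.0% and 0.231% of the V runs and 25.6 and 31.6 kb of the 158.1 kb of D-J-C runs, beside 12.7% and 12.6% of the autosomes. H3K27me3 went the other way, with 7.04% and 7.01% of the V runs, 0.632% and 0.0% of the D-J-C runs, and 10.7% and 12.3% of the autosomes. The V share of H3K27me3 was 16.2% and 16.0% at Trb, above the autosomes, 4.95% in both replicates at Tra/Trd and 0.0% in both at Trg. ATAC-seq covered 0.0442% and 0.0638% of the V runs and 0.136% and 0.28% of the D-J-C runs, both below the 0.347% and 0.397% of the autosomes.

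At the Tra/Trd locus, H3K4me3 touched 11 V segments in both replicates and none of them lay among the first V segments of the locus, which held H3K27me3 instead. The V segment with most lists was Trav13n-4 (gene 100126460, chr14:53362368-53364106), an alpha chain V segment of the duplicated central block, which all 8 lists of H3K4me3, H3K9ac, H3K27ac and ATAC-seq touched. H3K4me3 covered 1571 and 1692 of its 1739 bp, H3K27ac 1385 and 1395 bp, and ATAC-seq 72 and 81 bp at its start. It was the only V segment touched by ATAC-seq in both replicates.

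Trav13n-4 was the last of a group of marked V segments. Trav8n-2 was touched by 7 lists, with 256 and 331 of its 464 bp under H3K4me3 and 37 bp under ATAC-seq in replicate 2 only, and Trav16n by 6 lists, with 521 and 532 of 532 bp. Between Trav16n and Trav13n-4, where no member is annotated, the 6 lists of H3K4me3, H3K9ac and H3K27ac all marked the stretches chr14:53352219-53353528, chr14:53354311-53355317, chr14:53357683-53358526, chr14:53359476-53360218 and chr14:53360410-53361755. The marks at this place thus lay between the V segments as well as on them, and stopped at the end of Trav13n-4.

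The other V segments of this locus touched by all 6 of those lists were Trav13d-4 (513 and 513 of 513 bp under H3K4me3), Trav11n (538 and 557 of 557 bp), Trav4-4-dv10 (489 and 501 of 501 bp), Trav13-5 (509 and 509 of 509 bp) and Trav18 (662 and 550 of 723 bp). Just before Trav11n, H3K27ac in both replicates also marked the stretch chr14:53133802-53134803, with no member, and the neighbouring Trav6n-6, and it touched Trav16d-dv11 before Trav13d-4. A further stretch touched by all 6 lists, chr14:53800219-53803099, lay between Trav13-5 and Trav17 and held no member. Trav13n-3, Trav4-3 and Trav13-4-dv7 were touched by H3K4me3 in both replicates and by no H3K9ac list. Copies of the central Trav block, whose names carry d or n after the family number, were touched by H3K4me3 in 6 of 74 cases (8.11%) and the other Trav segments in 5 of 56 (8.93%). For H3K9ac the counts were 5 of 74 copies (6.76%) and 3 of 56 others (5.36%). For H3K27ac they were 7 of 74 (9.46%) and 3 of 56 (5.36%). Near-identical copies can lose reads when only unique alignments are kept. Reads are not in the lists, so whether such a loss had a part in these counts was not tested.

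The 60 Traj segments, which complete the alpha chain variable domain, held 1 block wider than the others. The stretch chr14:54172784-54178781 began at Traj45 and took in Traj44, Traj43, Traj42, Traj41 and, in some lists, Traj40. Its main interval was 4728 and 4768 bp wide in the 2 H3K4me3 lists, 4690 and 4883 bp in the H3K9ac lists and 4972 and 4664 bp in the H3K27ac lists, a width reached by 1.35% and 1.22%, 0.619% and 0.444%, and 0.805% and 1.09% of the intervals of those lists. Just before it, the stretch chr14:54170367-54172414 (2048 bp) was touched by 5 lists, with Traj47 under H3K9ac and H3K27ac and Traj46 under H3K27ac in both replicates. A smaller stretch (chr14:54203977-54205237, 1261 bp) covered Traj15 and, for H3K9ac and H3K27ac, Traj14.

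H3K36me2 covered 26.3% and 39.0% of the run from Traj61 to Trac. In replicate 1 it touched Traj44 and Traj43, Traj36 to Traj33, Traj24 to Traj20, and Traj4 to Trac, and in replicate 2 it touched Traj35 to Traj32, Traj26 to Traj16, Traj9 to Traj6, and Traj1 with Trac. The broad intervals of the replicates differed in where they broke, so that 9 Traj segments were touched in both.

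Trac (gene 100101484, chr14:54220521-54224198), the constant segment of the alpha chain, was touched by 8 lists. H3K36me2 covered 3678 and 3678 of its 3678 bp, H3K27ac 2714 and 2929 bp, H3K9ac 369 and 419 bp, and ATAC-seq 215 and 242 bp. No H3K4me3 interval touched it. Trdc (chr14:54142851-54146108), the constant segment of the delta chain, was touched by 0 of the 12 lists, and the 67335 bp from Trdv4 to Trdc also held none.

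Past Trac, towards Dad1, H3K4me3, H3K9ac, H3K27ac and ATAC-seq each covered a larger share than in any run of segments at this locus, while H3K36me2 covered less (17.7% and 32.7%) than in the run from Traj61 to Trac. In these 11.29 kb H3K27ac covered 95.0% and 99.0%, H3K9ac 84.5% and 84.9%, H3K4me3 55.7% and 52.0%, and ATAC-seq 15.8% and 12.8%. An ATAC-seq interval of 1311 bp in replicate 1 and 1145 bp in replicate 2 began 2971 and 2930 bp after Trac, and 1.21% and 3.70% of all ATAC-seq intervals were as wide. The alpha chain enhancer is known to lie in this direction from Trac, but no enhancer position is in the files. Dad1, the housekeeping gene that follows, was itself touched by H3K4me3, H3K9ac, H3K27ac, ATAC-seq and H3K36me2 in both replicates. Before its start at chr14:54235485, the last H3K4me3 intervals ended at chr14:54234798 and chr14:54234685. The wide ATAC-seq intervals ended at chr14:54228480 and chr14:54228273. An H3K27ac interval crossed the start of Dad1 in both replicates. Which gene the marks in this space belong to was not tested.

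**Figure D2:**
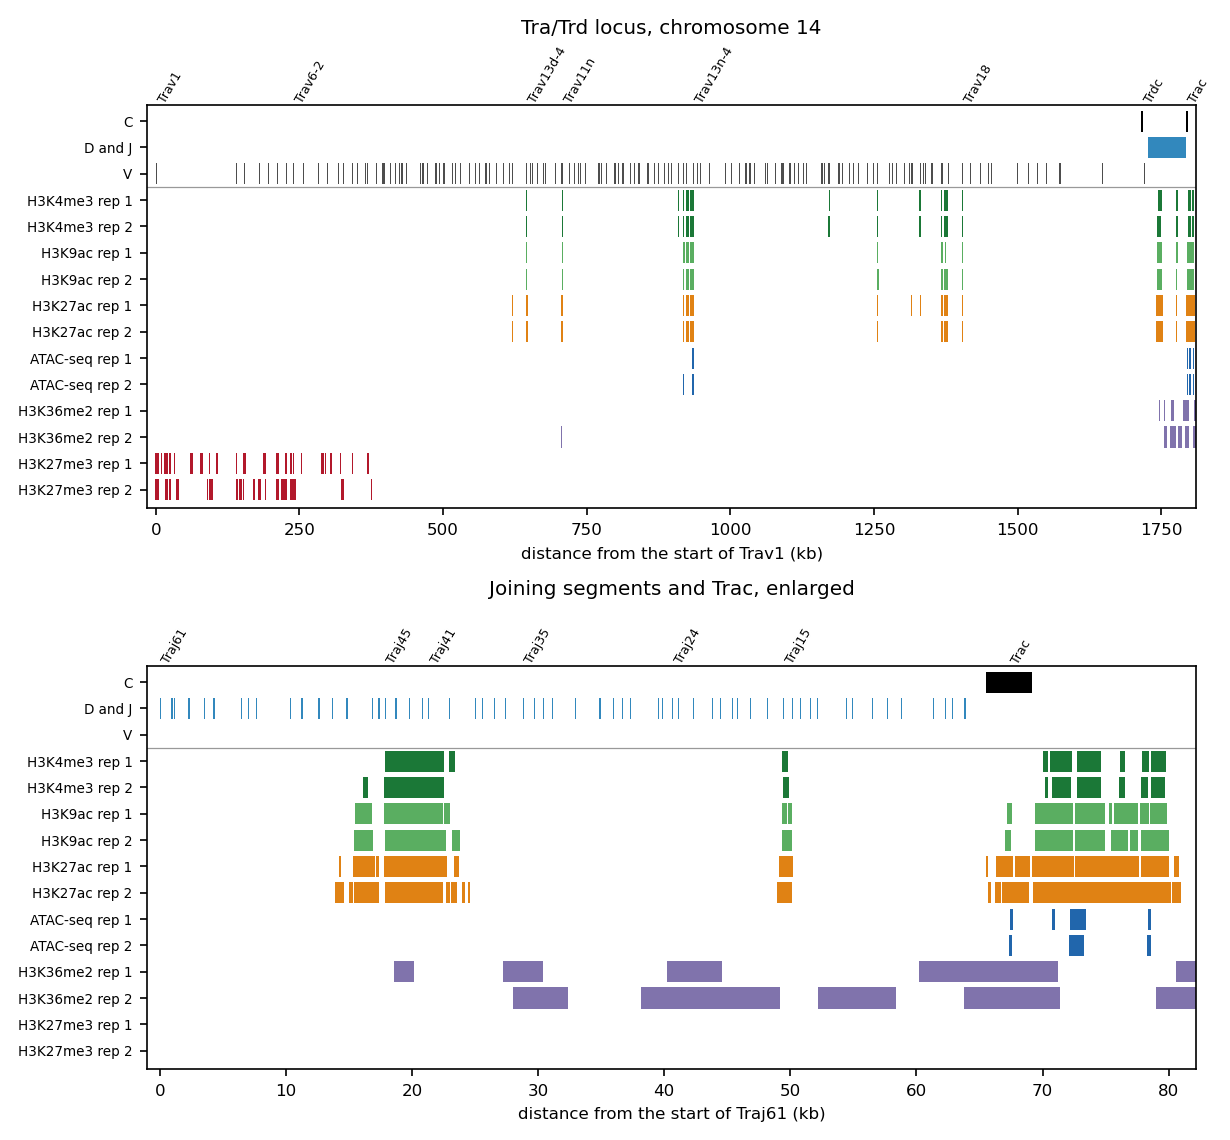
Intervals of the 12 lists (rows, 2 replicates a set) over the Tra/Trd locus, by distance from the start of Trav1 (upper) and of Traj61 (lower) in kb, with V, J and C segments in the top rows and narrow features widened to stay visible. H3K27me3 lies in the first part of the V run, the marks of active chromatin stand at separate V segments and blocks around Traj45, and they run on past Trac.

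H3K27me3 was confined to the V segments farthest from the J segments at this locus, in the lists used. It touched 8 segments in each replicate, of which 6 were shared, namely Trav1, Trav2, Trav3-1, Trav6-1, Trav7-1 and Trav6-2, and its last interval ended at chr14:52798599 in replicate 1 and chr14:52804399 in replicate 2. It covered 81.6 kb of the locus in each replicate, or 4.54%, where the autosomes had 10.7% and 12.3%. Trav1 was covered over 910 and 910 of its 910 bp, and Trav2 over 761 and 253 of its 761 bp. Of the 74 copies of the central Trav block, H3K27me3 touched 2 in replicate 1, 1 in replicate 2 and 0 in both. Among the 56 other Trav segments it touched 6 (10.7%) in both. Whether a loss of reads at these copies had a part in where the mark ended was not tested.

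At the Trb locus H3K27me3 had a like position. It covered 63.4 kb in replicate 1 and 62.6 kb in replicate 2, began after Trbv1 and ended at chr6:41107599 in both, just past Trbv11 (499 and 499 of 499 bp). Trbv8 (439 and 439 of 439 bp) was also touched in both replicates, and Trbv4, Trbv5, Trbv7 and Trbv9 in replicate 1 only. At the Trg locus H3K27me3 touched no segment in either replicate, and covered 2.8 and 3.0 kb, between Trgv3 and Trgj3 in both replicates and past Trgc3 in replicate 1. Of 30 V pseudogenes across the loci, 2 (6.67%) were touched by H3K27me3 in both replicates, Trbv8 and Trbv11, and 0 by any list of H3K4me3, H3K9ac or H3K27ac. Of the 148 other V segments, H3K27me3 touched 6 (4.05%) in both replicates, H3K4me3 15 (10.1%), H3K9ac 13 (8.78%) and H3K27ac 16 (10.8%).

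Of the 35 Trbv segments, Trbv15 (gene 100124679, chr6:41141211-41141658) alone was touched by all 6 lists of H3K4me3, H3K9ac and H3K27ac, with 448 and 448, 414 and 417, and 418 and 431 of its 448 bp covered. It was not touched by ATAC-seq. Trbv31, which unlike the other V segments lies beyond Trbc2, had 679 and 679 of 679 bp under H3K27ac and 305 and 488 bp under H3K9ac, 0 bp under H3K4me3 in both replicates, and 108 bp under ATAC-seq in replicate 2 only. Trbv1 had 590 and 590 of 590 bp under H3K27ac, and H3K4me3 (204 bp) and ATAC-seq (23 bp) in replicate 1 only.

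The beta chain has 2 clusters, each of a D segment, 7 J segments and a C segment, and only the second was marked. All 7 segments Trbj2-1 to Trbj2-7 were touched by H3K4me3, H3K9ac and H3K27ac in both replicates and lay in 1 stretch (chr6:41542533-41545919, 3387 bp), so they amount to a single observation. The 7 segments of the first cluster, together with Trbd1 and Trbc1 (1447 bp, gene start chr6:41538219), were touched by 0 of the 12 lists. Trbc2 (1452 bp, chr6:41546730-41548181), the constant segment of the second cluster, had 1452 and 1452 bp under H3K36me2 and 0 bp under each of the other sets.

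Between Trbc2 and Trbv31, where the beta chain enhancer is known to lie, the stretch chr6:41553376-41555698 was touched by all 8 lists of the 3 marks and ATAC-seq and held no member. The ATAC-seq intervals there were 763 and 852 bp wide, the widest of this locus in either replicate. Inside the locus, 7 genes had symbols beginning with Prss or Try, names used for trypsinogens. These 7 were touched by 0 lists of H3K4me3, H3K9ac, H3K27ac, ATAC-seq and H3K27me3. H3K36me2 touched 1 of them, Prss58, in replicate 2 only.

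**Figure D3:**
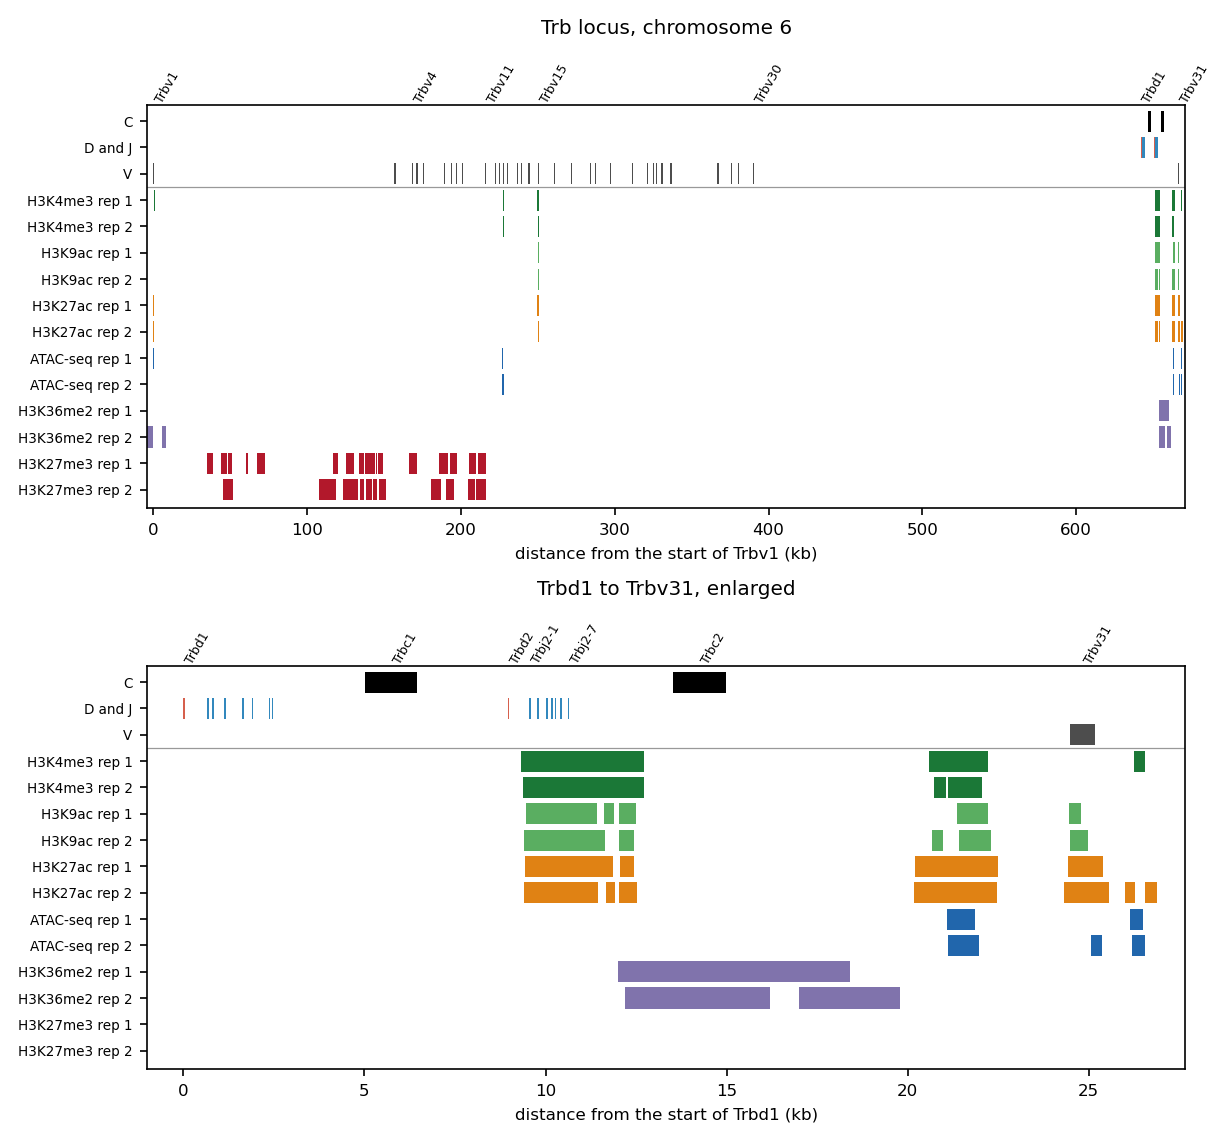
Intervals of the 12 lists (rows) over the Trb locus, by distance from the start of Trbv1 (upper) and of Trbd1 (lower) in kb, with V, D, J and C segments in the top rows and narrow features widened to stay visible. The cluster of Trbc1 holds no interval, while Trbj2-1 to Trbj2-7 lie under H3K4me3, H3K9ac and H3K27ac and Trbc2 under H3K36me2.

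The Trg locus was the most densely marked of the 3 in base pairs. H3K4me3 covered 33.1 and 32.2 kb of its 174.3 kb (a mean of 18.7%), against 1.1% of Tra/Trd and 0.878% of Trb. H3K9ac covered 18.1% of Trg, 1.04% of Tra/Trd and 0.689% of Trb on average, and H3K27ac 19.6%, 1.57% and 1.07%. The SD of the 2 technical replicates was at most 0.398 percentage points in these 9 means. It shows how well the lists repeat and not how much single loci vary, so it gives no scale for the difference between the 3 loci. In both replicates H3K4me3 touched 9 of 15 segments, and ATAC-seq touched 0.

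The gamma chain genes are laid out as cassettes that each carry their own V, J and C segments, and 3 of the 4 constant segments were marked. Trgc4 (7786 bp, chr13:19344558-19352343) had 6849 and 6732 bp under H3K4me3, 7321 and 7277 bp under H3K9ac and 7628 and 7517 bp under H3K27ac. Trgc2 (2492 bp, chr13:19305060-19307551) was covered over 2492 bp by each of these 6 lists. Trgc1 (2516 bp, chr13:19214103-19216618) had 1170 and 873 bp under H3K4me3, 776 and 342 bp under H3K9ac, 813 and 608 bp under H3K27ac, and 218 bp under H3K36me2 in replicate 2 only. Trgc3, with Trgv3 and Trgj3 of its cassette, was touched by 0 of the 12 lists.

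Wide intervals of these marks took in several neighbouring segments, also across cassettes. The stretch chr13:19336575-19352739 ran over 16165 bp from Trgv2 through Trgv1 and Trgj4 to Trgc4, and its H3K4me3 intervals were 12124 and 12070 bp wide, a width reached by 0.0215% and 0.0165% of the H3K4me3 intervals. The stretch over Trgc2 and Trgj2 held H3K4me3 intervals of 7114 and 7067 bp (0.205% and 0.165%). Trgj1 and Trgc1 shared H3K4me3 intervals of 4184 and 4140 bp (2.26% and 2.27%).

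Of the V segments here, Trgv4, Trgv2 and Trgv1 were touched by all 6 lists of H3K4me3, H3K9ac and H3K27ac, while Trgv6, Trgv5 and Trgv3 were touched by 0 of the 12 lists and Trgv7 by H3K36me2 in replicate 2 only. A stretch before Trgv4 (chr13:19182070-19183302), with no member in it, was touched by all 8 lists of the 3 marks and ATAC-seq. Past Trgc4, up to Stard3nl, H3K27ac covered 87.8% and 92.7% of 5.332 kb and ATAC-seq 1.02 and 1.07 kb of it. ATAC-seq intervals of 819 and 1069 bp began 3754 and 3741 bp after Trgc4 and were the widest of the locus. Stard3nl was itself touched by all 8 of these lists. Intervals of H3K4me3, H3K9ac and H3K27ac ran from this space into Stard3nl in both replicates. Which gene the marks in this space belong to was not tested.

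**Figure D4:**
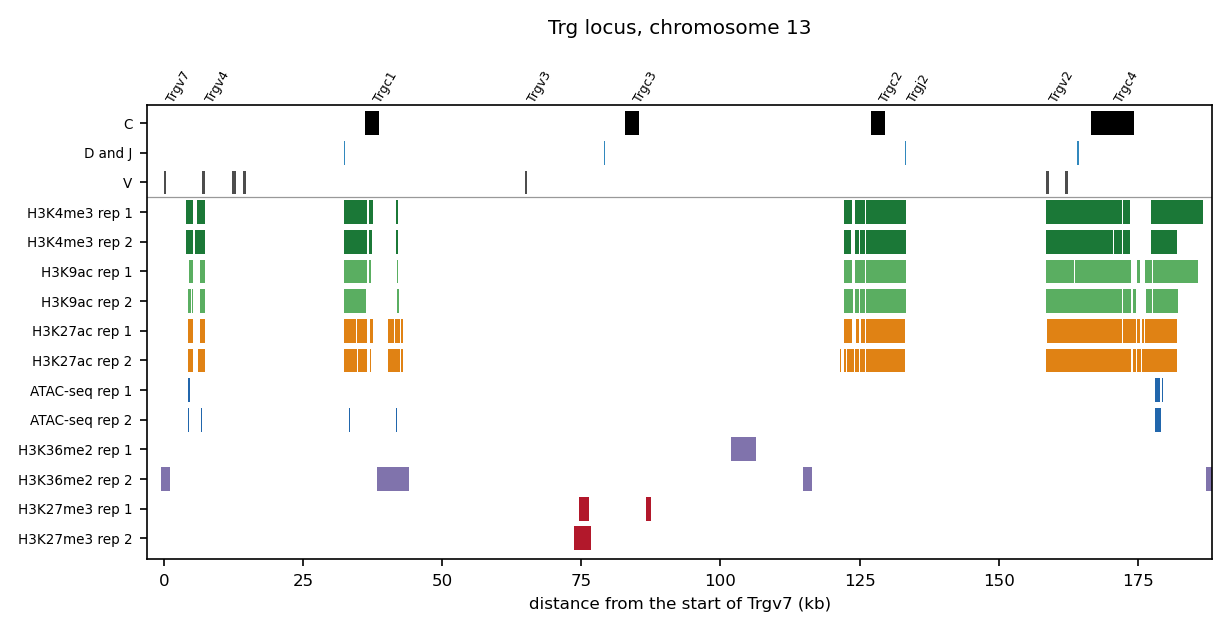
Intervals of the 12 lists (rows) over the Trg locus, by distance from the start of Trgv7 in kb, with V, J and C segments in the top rows and narrow features widened to stay visible. H3K4me3, H3K9ac and H3K27ac form 4 groups, at Trgv4, at Trgj1 and Trgc1, at Trgc2 and Trgj2, and from Trgv2 past Trgc4, with none at Trgc3.

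At a few V and J segments the edges of the marked blocks fell on the ends of the segment. An edge was counted where all 6 lists of H3K4me3, H3K9ac and H3K27ac had an interval that touched the gene and ended within 100 bp of the same end of it, a rule chosen after the maps had been seen. It held for 8 of 266 segments and for 252 of 49554 genes (0.509%). With gene length limited to at most 1000 bp and all 6 lists touching the gene, it held for 7 of 26 segments (26.9%) and 25 of 468 other genes (5.34%). Since the rule was built on these edges, the shares describe them and support nothing further. The 8 segments were 6 V and 2 J segments, and no C segment.

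The closest match was at Trgj2, whose end is chr13:19311304. The edge was 0 and 0 bp from it in the H3K4me3 lists, 0 and -12 bp in the H3K9ac lists, and -26 and -29 bp in the H3K27ac lists, a negative value lying inside the segment. The next interval in the locus began at Trgv2 (start chr13:19336573), at 2 and 2 bp, 33 and 7 bp, and 47 and 8 bp inside it. The 25.3 kb between these edges held 0 intervals of the 12 lists.

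A like pair of facing edges was seen at Trgv4 and Trgj1. Intervals ended -1 and 12 bp, -22 and -3 bp, and -7 and -30 bp from the end of Trgv4, and the next ones began 35 and 28 bp, 38 and 86 bp, and 77 and 87 bp after the start of Trgj1. Since Trgj1 is 60 bp long, the last 3 of these began just past it, and it is not among the 8 segments. The 24.9 kb between, with 2 V segments inside, held 0 intervals.

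At the beta chain, intervals ended 3 and 6 bp, -34 and -31 bp, and -30 and -17 bp from the end of Trbv15. The next interval of any list began at Trbj2-1, from -221 to -103 bp of its start. The 401.0 kb between, which include 15 V, 2 D and 7 J segments and Trbc1, held 0 intervals of the 12 lists.

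At the alpha chain, the interval over Traj45 to Traj41 began within -47 to -3 bp of the start of Traj45, after a short break from the marked stretch over Traj47 and Traj46 that ended at chr14:54172414, and the marks at Trav13n-4 ended within -28 to 41 bp of its end. The 809.0 kb between these held 51 intervals of H3K4me3, H3K9ac and H3K27ac and 0 of ATAC-seq, H3K36me2 or H3K27me3, so this space was not free of marks. Edges at Trav11n (-70 to -49 bp of its start) and Trav4-4-dv10 (-20 to 80 bp of its end) belonged to single short stretches of 993 and 774 bp.

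Stretches without an interval are common in these lists. Those at least as long as the ones at Trgj2 to Trgv2, Trgv4 to Trgj1 and Trbv15 to Trbj2-1 made up 49.2%, 49.4% and 23.2% of the base pairs of the autosomes. Rearrangement of these loci in EL4 cells, the loss of a chromosome segment and poor unique mapping could not be read from positions alone, and their part in the edges and gaps was not tested.

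**Figure D5:**
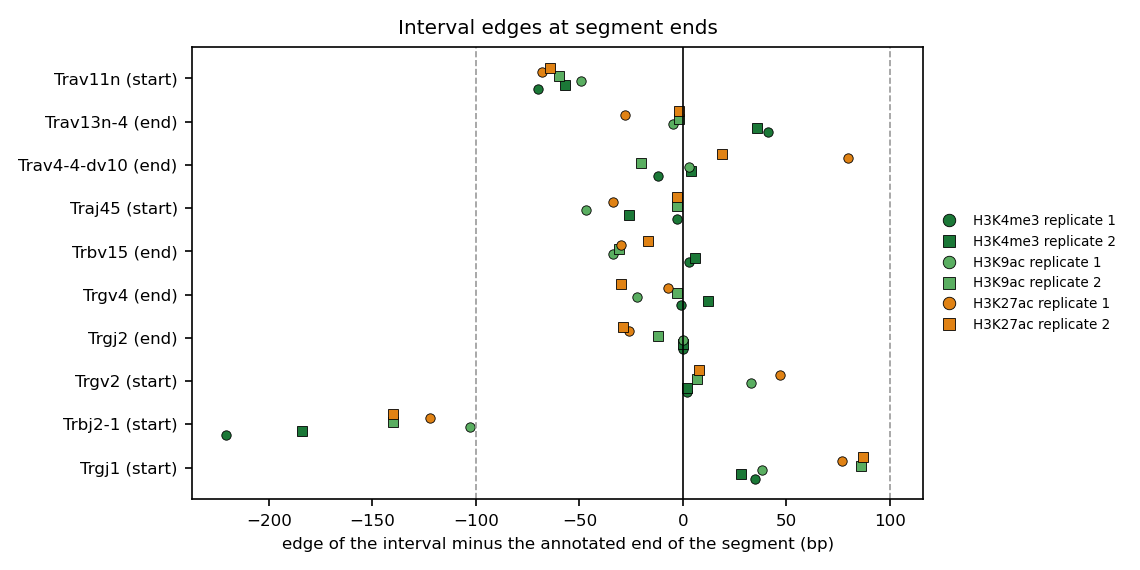
Distance (horizontal axis, bp) from an annotated segment end to the edge of the nearest interval, with 1 point for each of the 6 lists of H3K4me3, H3K9ac and H3K27ac and dashed lines at 100 bp. The points of the first 8 segments lie inside the dashed lines, those of Trbj2-1 lie before its start, and those of Trgj1 lie inside the lines although 3 of its intervals miss the segment.

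As a comparison from another receptor, 215 segments of the immunoglobulin heavy chain locus, which B cells assemble, were mapped in the same way. H3K4me3 touched 0 of 183 V segments, 4 of 4 J segments and 1 of 8 C segments in both replicates, and H3K27ac touched 6 V, 4 J and 1 C segments. Over all 215 segments, H3K4me3 touched 2.79% and H3K27ac 5.58% in both replicates, beside 27.7% and 27.5% of all genes. H3K27me3 touched 0 of the 215 heavy chain segments and 8 of the 266 T cell receptor segments (3.01%) in both replicates. Both shares of H3K27me3 were below the 14% of all genes, which were not matched for length. H3K4me3 at J segments was thus found at both, in 4 of 4 heavy chain and 16 of 78 T cell receptor segments. At V segments it was found at the T cell receptor loci (15 of 178). H3K36me2 touched 4 of 4 heavy chain and 9 of 78 T cell receptor J segments in both replicates. Neighbouring J segments can lie under a single interval, so these counts are not independent observations.

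Of the partner genes, the 4 CD3 genes Cd3d, Cd3e, Cd3g and Cd247, whose products carry the signal of the receptor, were touched by H3K4me3, H3K9ac and H3K27ac in both replicates, and 3 of them by ATAC-seq. Ptcra, the stand-in for the alpha chain in early thymocytes, was touched by 0 of the 12 lists. Rag1 and Rag2, which encode the recombinase, were touched by H3K27me3 in both replicates and by no other list. Dntt, which adds bases at V(D)J joints, was touched by H3K4me3, H3K9ac, H3K27ac and H3K36me2 in both replicates and by 0 ATAC-seq lists.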

How the data were processed

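The authors deposited 12 interval lists, 1 per replicate, with 3 columns (chromosome, start and end in base pairs) and no score, count or p-value. The submitters' processing notes name GRCm38, STAR 2.5, Picard and MACS2, and reads were paired, 38 and 37 bp by the labels. By the study's methods, unique alignments were kept, narrow marks and ATAC-seq were called with macs2 and H3K36me2 and H3K27me3 with Epic, with the input as control for ChIP-seq. Depth is not given in the sources used here.

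Members and lists were chosen with earlier results of these data known. Gene positions came from RefSeq on GRCm38. Overlaps of at least 1 bp were computed per replicate in Python 3.11.15 with numpy 2.4.6 and pandas 2.3.3, tested on simulated intervals, and checked against bedtools 2.31.1 over 12 lists and 49554 genes with 0 differences. No test was run. Runs of neighbouring V segments, and of D, J and C segments, gave the covered shares. Named were all C and D segments and up to 20 V and J segments touched by H3K4me3 or ATAC-seq in both replicates, by number of lists and position. Other V and J segments were named after their values were seen, and so was the rule on interval edges. The planned search for promoter motifs was not made, since 0 of 266 members matched the promoter table, and no sequence is shown for the same reason.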

Additional observations from a re-analysis of the deposited data

How the results depend on the processing

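Counting a segment as touched in either replicate gave 5 segments for ATAC-seq (2 in both), 30 for H3K36me2 (11) and 16 for H3K27me3 (8), and among V segments 4 for ATAC-seq (1), 1 for H3K36me2 (0) and 16 for H3K27me3 (8), and 26 J segments for H3K36me2 (9). Leaving out 1 replicate in turn gave 3 to 4 segments for ATAC-seq, 17 to 24 for H3K36me2 and 10 to 14 for H3K27me3, and 21.8 to 21.9% of the D-J-C runs under H3K9ac. By the middle base, ATAC-seq touched 0 segments, 0 V and 0 C segments, and H3K9ac 8 V segments (13). ATAC-seq covered 50% or more of 0 segments. With 1 kb on either side, ATAC-seq touched 4 segments and 3 V segments, H3K36me2 17 and 15 J segments, H3K4me3 5 C segments (3), and each of H3K4me3, H3K9ac and H3K27ac 1 D segment (0). With intervals of at least 500 bp, ATAC-seq touched 0 segments and covered 0.0% of V and of D-J-C runs, and the mean number of intervals in the loci and flanks was 31.0 with H3K9ac (51.5 before), 41.0 with H3K27ac (67.5) and 3.0 with ATAC-seq (13). That filter gave 0.921, 0.633 and 0.93% of the V runs for H3K4me3, H3K9ac and H3K27ac, and 20.2, 20.6 and 23.2% of the D-J-C runs. Joining intervals up to 1000 bp apart gave 1.2, 1.02, 1.43 and 7.18% of the V runs for H3K4me3, H3K9ac, H3K27ac and H3K27me3, and 22.0, 23.7 and 28.2% of the D-J-C runs for the first 3. Extending the runs by 10 kb gave 1.16, 0.909, 1.31, 0.116, 0.377 and 6.76% of the V runs for H3K4me3, H3K9ac, H3K27ac, ATAC-seq, H3K36me2 and H3K27me3, and 18.9, 21.1, 1.55, 14.4 and 1.12% of the D-J-C runs for H3K4me3, H3K9ac, ATAC-seq, H3K36me2 and H3K27me3. Pooled over the loci, H3K4me3, H3K9ac and H3K27ac covered a larger share of the D-J-C runs than of the V runs with the 500 bp filter, joining, extension and either replicate left out. At Trg alone H3K4me3 had 35.7% of the V and 33.7% of the D-J-C runs on average. Edges within 50 and 200 bp, limits chosen after seeing the data, held for 6 and 11 segments, beside 0.0948% and 1.73% of all genes. Leaving out pseudogenes moved no count by over 1.5 times. The ATAC-seq counts rest on few segments, and without depth a missing interval does not show a missing mark. No paired analysis was possible because the results come from no test.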
